A study of Homo sapiens with 9 samples.

Results

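The segment described here is a 35 Mb stretch of human chromosome 13, from 60 to 95 Mb on GRCh38, in 4 lists of accessible chromatin peaks from HEK293T cells. Its members are all peaks on chromosome 13 whose midpoint lies between those bounds. They number 380 of 39194 peaks in the control list, 970 of 50917 in the IGF2BP1 knockout list, 1515 of 60262 in the IGF2BP2 knockout list and 1221 of 44041 in the IGF2BP3 knockout list. The segment was chosen by these same peak counts in the knockout and control lists, so the numbers of its peaks are a description and carry no test.

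HEK293T is an established human embryonic kidney line. The assay was ATAC-seq, which uses the Tn5 transposase to tag open DNA with adapters, and the study compared cells edited at IGF2BP1, IGF2BP2 or IGF2BP3 with cells that received Cas9 and a guide matching no mammalian gene. All cells were otherwise untreated. The labels describe 9 libraries, of which 2 were controls (batches 2 and 3), 3 lacked IGF2BP1 (batches 1, 2 and 3), 2 lacked IGF2BP2 and 2 lacked IGF2BP3 (batches 2 and 3 in each case). Knockout cells were made by transient transfection of plasmids that carried 3 guides and GFP, and 1 clone per gene was used, so the effect of a genotype and that of a clone cannot be told apart. Each group is represented by 1 list that gives only the chromosome, start and end of its peaks. No spread between libraries could be measured and read depth is unknown. The control and the knockouts of IGF2BP2 and IGF2BP3 come from the same batches, and whether the batch 1 library entered the IGF2BP1 knockout list is not stated. Without values per library, lists could not be compared within batches. All 3 knockout lists are set against the same control list, so they share whatever that list holds or lacks. Neither the edit nor the loss of protein can be read from peak positions.

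IGF2BP1, IGF2BP2 and IGF2BP3 are RNA-binding proteins that attach to messenger RNAs and affect their stability, localisation and translation. An ATAC-seq peak marks a nucleosome-poor stretch, typically a promoter, an enhancer or an insulator. Promoters rich in CpG dinucleotides are open in most cell types, whereas peaks far from genes vary more between cell types. The middle of the long arm of chromosome 13 is poor in genes. It holds long genes of neural adhesion and of cell-surface proteoglycans, several short genes between wide intervals with few genes, and the host gene of the miR-17-92 microRNA cluster.

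Promoters from the segment show which start sites had a peak in every list, in the knockout lists alone or in no list. Open and closed starts here mean starts with and without a peak in the list. Each sequence covers 250 bases before and 50 bases after a start site, 5′ to 3′ on the strand of the gene, from RefSeq on GRCh38.p14. Capitals mark CpG dinucleotides. MIR17HG, the host of the miR-17-92 cluster (chr13:91347437-91347736, plus strand), and POU4F1, a transcription factor of sensory neurons (chr13:78603503-78603802, minus strand), had a peak over the start in all 4 lists. KLF5, a zinc-finger transcription factor, is shown with an outer start that had no peak in any list (chr13:73054726-73055025, plus strand) and with an inner start that was open in all lists (chr13:73058755-73059054). LMO7, a LIM-domain protein of cell junctions, is shown with a start open in all lists (chr13:75636080-75636379, plus strand) and with an internal start covered by a peak in the 3 knockout lists only (chr13:75760070-75760369). GPC6, a cell-surface heparan sulfate proteoglycan (chr13:93226557-93226856, plus strand), is shown because its start was open in all lists with few CpG dinucleotides.
MIR17HG: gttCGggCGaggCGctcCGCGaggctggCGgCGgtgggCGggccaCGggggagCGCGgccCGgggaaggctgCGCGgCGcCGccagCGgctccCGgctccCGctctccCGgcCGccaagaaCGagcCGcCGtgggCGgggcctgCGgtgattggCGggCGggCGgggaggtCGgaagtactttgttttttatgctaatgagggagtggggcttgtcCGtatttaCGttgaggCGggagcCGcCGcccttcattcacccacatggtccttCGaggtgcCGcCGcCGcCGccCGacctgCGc
POU4F1: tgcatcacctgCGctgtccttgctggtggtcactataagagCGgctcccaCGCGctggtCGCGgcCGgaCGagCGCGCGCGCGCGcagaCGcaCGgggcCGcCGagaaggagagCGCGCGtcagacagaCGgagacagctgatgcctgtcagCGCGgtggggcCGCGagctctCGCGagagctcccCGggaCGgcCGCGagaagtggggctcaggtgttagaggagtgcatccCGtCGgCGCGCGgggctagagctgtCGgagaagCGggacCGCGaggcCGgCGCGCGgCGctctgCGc
KLF5 outer start: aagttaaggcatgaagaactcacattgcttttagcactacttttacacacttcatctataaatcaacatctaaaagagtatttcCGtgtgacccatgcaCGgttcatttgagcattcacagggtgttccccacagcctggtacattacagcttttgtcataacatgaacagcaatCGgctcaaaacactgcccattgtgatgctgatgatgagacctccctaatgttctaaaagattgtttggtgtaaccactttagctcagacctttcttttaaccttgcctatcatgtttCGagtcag
KLF5 inner start: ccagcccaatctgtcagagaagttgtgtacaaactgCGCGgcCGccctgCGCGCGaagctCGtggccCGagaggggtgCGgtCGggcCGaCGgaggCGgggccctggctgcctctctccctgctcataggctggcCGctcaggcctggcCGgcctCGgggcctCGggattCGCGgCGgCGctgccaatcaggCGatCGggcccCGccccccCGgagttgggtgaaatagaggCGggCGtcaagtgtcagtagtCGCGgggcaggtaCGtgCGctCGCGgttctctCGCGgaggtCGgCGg
LMO7 start: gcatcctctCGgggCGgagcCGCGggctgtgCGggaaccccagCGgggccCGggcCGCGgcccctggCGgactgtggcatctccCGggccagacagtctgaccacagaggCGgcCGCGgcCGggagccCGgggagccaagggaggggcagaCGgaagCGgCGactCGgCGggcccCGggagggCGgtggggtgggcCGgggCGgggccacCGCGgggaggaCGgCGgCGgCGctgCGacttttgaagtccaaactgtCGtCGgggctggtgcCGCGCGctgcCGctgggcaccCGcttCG
LMO7 internal start: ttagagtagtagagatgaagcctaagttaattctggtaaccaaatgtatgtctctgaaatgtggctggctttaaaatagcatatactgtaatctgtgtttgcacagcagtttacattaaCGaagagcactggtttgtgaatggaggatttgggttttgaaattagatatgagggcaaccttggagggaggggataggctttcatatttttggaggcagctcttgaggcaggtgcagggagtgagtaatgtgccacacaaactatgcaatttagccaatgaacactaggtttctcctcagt
GPC6: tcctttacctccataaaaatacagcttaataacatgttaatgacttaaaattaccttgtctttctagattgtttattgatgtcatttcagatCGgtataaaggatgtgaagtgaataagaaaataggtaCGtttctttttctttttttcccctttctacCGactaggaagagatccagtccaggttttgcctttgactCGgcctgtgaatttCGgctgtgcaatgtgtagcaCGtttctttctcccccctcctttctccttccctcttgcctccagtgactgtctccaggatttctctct

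These promoters differed widely in CpG content. The 300 bases held 42 CpG dinucleotides at MIR17HG and 47 at POU4F1. At KLF5 they held 4 at the outer start and 37 at the inner start, and at LMO7 40 at the open start and 1 at the internal start. The GPC6 window held 6. At the internal LMO7 start the control list had no peak, and the peaks of the knockouts of IGF2BP1, IGF2BP2 and IGF2BP3 were 951, 1052 and 654 bp wide. The open LMO7 start had peaks of 1277 bp in the control list and 1332, 1772 and 1679 bp in the same knockout lists.

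The segment held more peaks in every knockout list than in the control list. Peak density was 10.9 peaks per Mb in the control list, 27.7 in the IGF2BP1 knockout, 43.3 in the IGF2BP2 knockout and 34.9 in the IGF2BP3 knockout. On the rest of chromosome 13, between its first and last peak, the density was 10.2, 14.2, 16.0 and 11.1 peaks per Mb in the same order. On average the control list was thus nearly as dense in the segment as on the rest of the chromosome, at 1.06 times. This ratio was 1.95, 2.71 and 3.15 in the knockouts. The whole knockout lists were 1.30, 1.54 and 1.12 times as long as the control list, and the segment's counts were 2.55, 3.99 and 3.21 times the control count.

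As a share of the list, which removes the difference in list length, the segment held 0.970% of control peaks (95% Wilson interval 0.877 to 1.07, counting error over peaks only). The share was 1.91% (1.79 to 2.03) for the knockout of IGF2BP1, 2.51% (2.39 to 2.64) for that of IGF2BP2 and 2.77% (2.62 to 2.93) for that of IGF2BP3. The peaks covered 299 kb of the segment in the control list and 842, 1016 and 853 kb in the knockouts. The median distance from one peak to the next shortened from 50.7 kb in the control to 23.8, 15.7 and 19.2 kb. Among peaks within 1 kb of the end of an annotated gene, the segment held 52 in the control and 83, 102 and 93 in the knockouts, and the share over the control share was lower, at 1.47, 1.74 and 1.73. Taking only the 39194 widest peaks of each list left 380 control peaks and 714, 917 and 1043 knockout peaks in the segment, so that the IGF2BP3 knockout then held the most.

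Peak numbers in the knockouts were above the control in each 1 Mb window, though for the IGF2BP1 knockout the share of the list was not. In 1 Mb windows the control list held 1 to 24 peaks, with a median of 11, the same as its median of 11 over 2897 windows of the genome. The IGF2BP1 knockout held 9 to 46 peaks per window (median 27), the IGF2BP2 knockout 14 to 77 (median 41) and the IGF2BP3 knockout 11 to 65 (median 32). Genome medians for these lists were 16, 19 and 13. Each knockout list exceeded the control list in 35 of the 35 windows. The control list was the lowest of the 4 in all 35, against 50.5% of windows over the genome. A knockout list exceeded the control in 83.7% of genome windows for the IGF2BP1 knockout, 92.6% for the IGF2BP2 knockout and 58.6% for the IGF2BP3 knockout. The share of the list was at least 1.5 times the control share in 32, 30 and 34 of the 35 windows, against 13.2, 19.4 and 12.4% of all windows. The lowest ratio of shares was 0.860, 1.11 and 1.20, from 60 to 61 Mb in each knockout. The rule that set the bounds used these counts, so nothing further is read from them.

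**Figure D1:**
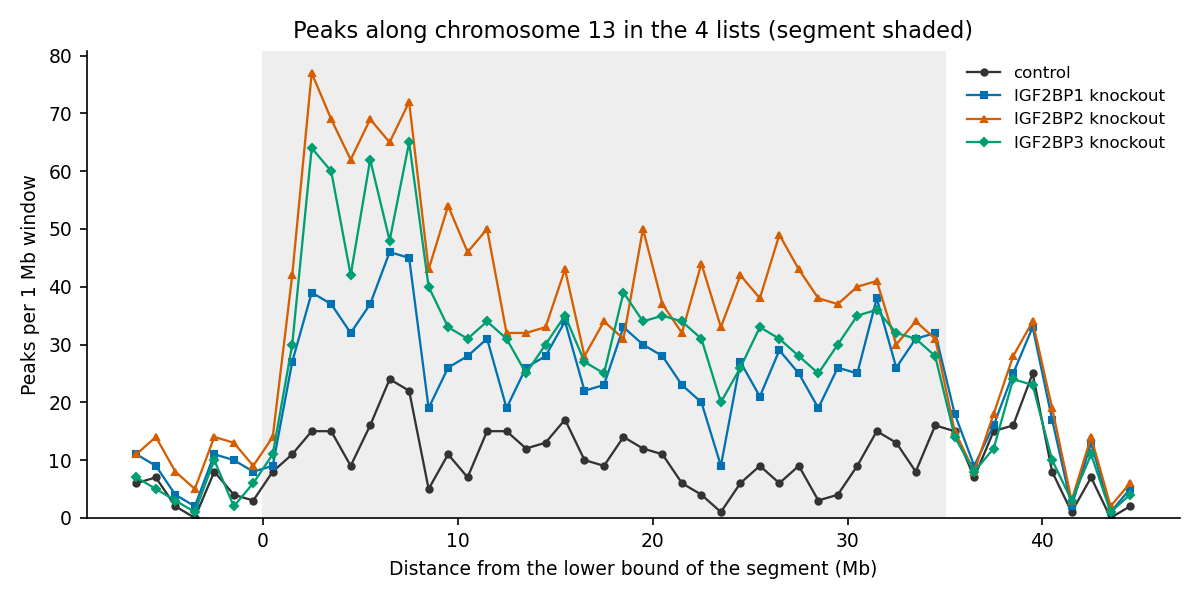
Peaks per 1 Mb window (vertical axis) against the distance in Mb from the lower bound of the segment (horizontal axis), with 1 line per list and the segment shaded. From 60 to 61 Mb the control line is at 8 and the knockout lines at 9 to 14, in the next window they are at 11 and 27 to 42, and past the upper bound they are at 15 and 14 to 18.

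The size of the excess varied along the segment, and the control list varied with it. In successive 5 Mb windows the control list held 58, 78, 62, 62, 28, 31 and 61 peaks. The IGF2BP1 knockout held 144, 173, 132, 142, 107, 120 and 152 peaks in these windows. The IGF2BP2 knockout held 264, 303, 193, 186, 188, 205 and 176. The IGF2BP3 knockout held 207, 248, 151, 160, 146, 147 and 162. In counts the knockout lists were highest from 65 to 70 Mb, around PCDH9. In shares relative to the control they were highest from 80 to 90 Mb, where the control list was lowest. From 80 to 85 Mb the share was 2.90, 4.30 and 4.57 times the control share, and from 85 to 90 Mb it was 2.94, 4.24 and 4.17 times. Elsewhere the ratio ran from 1.63 to 1.91 for the knockout of IGF2BP1, from 1.87 to 2.94 for that of IGF2BP2 and from 2.16 to 3.16 for that of IGF2BP3.

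The segment was also set beside other windows with few genes. The 7 windows held 4, 2, 7, 18, 2, 4 and 6 protein-coding genes, so the limit of 18 used for the other windows is above the number in 6 of them. Only 5 Mb windows with a mean of at least 20 peaks over the 4 lists were kept, so the sparsest windows are left out. That mean includes the knockout lists. Among 186 other kept windows with at most 18 coding genes, the median was 39 control peaks and 58, 74 and 44 knockout peaks. The segment's median window held 61 control peaks, which was above 90.3% of those windows. Its median of 142 peaks in the IGF2BP1 knockout was above 100% of them, its median of 193 in the IGF2BP2 knockout above 99.5%, and its median of 160 in the IGF2BP3 knockout above 100%. The share over control in those other windows had medians of 1.14, 1.23 and 1.09 and maxima of 3.03, 3.60 and 2.20. It exceeded the lowest value of the segment's windows in 5, 13 and 1 of them. In the IGF2BP1 knockout the highest of all kept windows lay on chromosome 18, from 40 to 45 Mb, with 7 control and 29 knockout peaks. All 7 windows reached 1.5 times the control share in each knockout, against 4.87, 10.6 and 3.83% of the 575 windows kept over the genome.

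The edges were then located in each knockout list as the pair of positions on chromosome 13 that best split its peaks from control peaks by a single share inside and a single share outside. The upper edge fell at 94.42 Mb for the IGF2BP1 knockout, 94.25 Mb for the IGF2BP2 knockout and 94.34 Mb for the IGF2BP3 knockout. Positions within 2 log-likelihood units of the best ran from 93.95 to 95.48, from 94.03 to 94.53 and from 94.12 to 94.60 Mb. These ranges overlap, so the upper edges are not separated. For the knockouts of IGF2BP2 and IGF2BP3 the edge lay within GPC6, and for the IGF2BP1 knockout it lay 8.65 kb past GPC6 and 20.1 kb before DCT, which encodes an enzyme of melanin synthesis.

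The lower edge was less sharply placed. It fell at 61.77 Mb for the IGF2BP3 knockout (59.53 to 61.86), 355 kb past PCDH20, a protocadherin gene. It fell at 58.24 Mb (52.93 to 62.64) for the IGF2BP1 knockout and at 55.41 Mb (53.24 to 61.78) for the IGF2BP2 knockout. When each list was limited to its 39194 widest peaks, the lower edges were 61.51, 61.42 and 61.77 Mb. The share over control inside the fitted edges was 2.00, 2.64 and 3.00, and outside them it was 1.04, 0.995 and 0.977.

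The counts in windows at the bounds do not step at 60 Mb itself. Just outside the lower bound, from 59 to 60 Mb, the control list held 3 peaks and the knockouts 8, 9 and 6. Just inside it, from 60 to 61 Mb, the counts were 8, 9, 14 and 11, and from 61 to 62 Mb they were 11 in the control against 27, 42 and 30. Just inside the upper bound, from 94 to 95 Mb, the control list held 16 peaks and the knockouts 32, 31 and 28. Just outside it, from 95 to 96 Mb, the lists held 15, 18, 15 and 14. In the 10 Mb below the segment the control list held 87 peaks and the knockouts 124, 155 and 98. In the 10 Mb above it the counts were 96, 139, 147 and 110.

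The same search between knockouts gave one block that resembled the segment. The IGF2BP3 knockout had 1.52 times the share of the IGF2BP1 knockout between 61.80 and 91.38 Mb, and 0.941 times outside. Between the knockouts of IGF2BP2 and IGF2BP1 the search placed no edge, since positions within 2 log-likelihood units ran from 16.28 to 61.95 Mb for the lower and from 17.13 to 114.35 Mb for the upper. In 5 Mb windows the IGF2BP2 share was 1.55, 1.48, 1.24, 1.11, 1.48, 1.44 and 0.978 times the IGF2BP1 share along the segment. Between IGF2BP3 and IGF2BP2 the best pair lay outside the segment, from 16.53 to 19.22 Mb.

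Most control peaks of the segment were found again in the knockouts, and most knockout peaks had no counterpart in the control. Peaks that shared at least 1 bp were called counterparts. Of 380 control peaks, 345 (90.8%), 353 (92.9%) and 349 (91.8%) had a counterpart in the knockouts of IGF2BP1, IGF2BP2 and IGF2BP3. Control peaks without one made up 10.1, 8.8 and 18.5% of the whole control list. In the opposite direction, 342 of 970 IGF2BP1 knockout peaks (35.3%, Wilson 32.3 to 38.3) had a control counterpart, against 69.4% of the other peaks of that list. The IGF2BP2 knockout had 353 of 1515 (23.3%, 21.2 to 25.5), against 60.8%. The IGF2BP3 knockout had 347 of 1221 (28.4%, 26.0 to 31.0), against 74.0%.

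Peaks without a control counterpart numbered 628, 1162 and 874. Over the whole lists such peaks made up 31.2, 40.2 and 27.2%, and the segment held 3.95, 4.80 and 7.28% of all of them. They were narrower than peaks with a counterpart, as were unmatched peaks in every other comparison between lists in the segment. The median width was 712 against 953.5 bp in the IGF2BP1 knockout, 553.5 against 824 bp in the IGF2BP2 knockout and 567 against 817 bp in the IGF2BP3 knockout. In lists of 39194 widest peaks each, the share with a counterpart was 42.4, 33.4 and 31.8%, against 76.9, 74.4 and 77.6% of other peaks.

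The knockout lists were also compared with each other in the segment. Of IGF2BP1 knockout peaks, 84.0% had a counterpart in the IGF2BP2 knockout and 72.7% in the IGF2BP3 knockout, close to the 86.6 and 71.3% of the rest of that list. Of IGF2BP2 knockout peaks, 54.5% had a counterpart in the IGF2BP1 knockout (rest of list 74.6%) and 58.9% in the IGF2BP3 knockout (64.2%). Of IGF2BP3 knockout peaks, 58.1% had a counterpart in the IGF2BP1 knockout (83.9%) and 72.7% in the IGF2BP2 knockout (87.7%). Over the whole lists, the shares without such a counterpart were 13.4 and 28.7% for IGF2BP1, 25.9 and 35.9% for IGF2BP2, and 16.8 and 12.7% for IGF2BP3 knockout peaks, in the order of the sentences above. For the knockouts of IGF2BP2 and IGF2BP3 the shares with a counterpart were lower in the segment than in the rest of the list.

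Merging overlapping peaks of all lists gave 1939 regions in the segment, which show how far the lists coincide. Of these, 374 (19.3%) held a control peak, against 52.8% on the rest of the chromosome. The other 1565 regions (80.7%) held none, against 45.8% over all regions of the genome. Among them, 813 were in 1 knockout list, 418 in 2 and 334 in all 3. The last of these classes, common to the knockouts and missing from the control, made up 17.2% of the segment's regions, against 6.88% over the genome. Regions in all 4 lists numbered 317 (16.3%, against 41.5%), and 7 were in the control alone (0.361%, against 1.98%).

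Regions in a single list fell unevenly among the knockouts. The IGF2BP2 knockout alone held 446, the IGF2BP3 knockout alone 269 and the IGF2BP1 knockout alone 98. The IGF2BP3 knockout alone made up 13.9% of the segment's regions against 4.65% elsewhere, and the pair of IGF2BP2 and IGF2BP3 knockouts 11.4% against 3.28%. The IGF2BP1 knockout alone made up 5.05% against 6.05%. With lists of equal length, 74.1% of the segment's 1442 regions lacked a control peak, against 32.3% of regions elsewhere, and 13.0% were held by the 3 knockouts without the control, against 3.71%. Among regions with a control peak, those in all 4 lists made up 317 of 374 (84.8%) in the segment and 76.4% elsewhere.

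**Figure D2:**
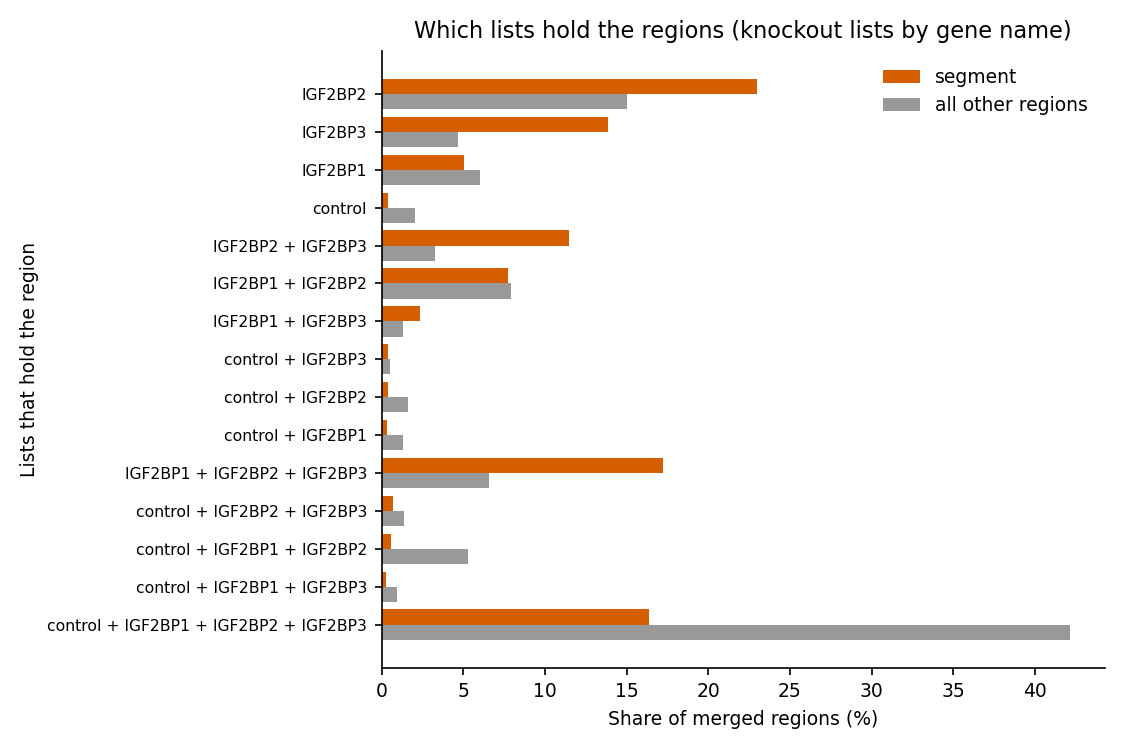
Share of merged regions in percent (horizontal axis) by the lists that hold them (vertical axis, knockout lists by gene name), for the segment in orange and all other regions in grey. Regions in all 4 lists make up 16.3% of the segment, whose total of 1939 includes 1565 regions without a control peak.

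Regions were named by width, taken as the smallest peak among the lists that hold them. The widest region in all 3 knockout lists and at least 1 kb from a control peak lay at chr13:90322299-90323956, 1075 kb from GPC5, with peaks of 1237, 1657 and 1438 bp. The next lay at chr13:93558766-93560739 within GPC6, with peaks of 1758, 1208 and 1525 bp. It was followed by chr13:71055808-71057137, 381 kb from DACH1, with peaks of 1199, 1203 and 1156 bp. The other two were at chr13:64924563-64925999 and at chr13:68480217-68481831, which lay 1219 kb from KLHL1. In total 333 regions met this rule, and 4 of the 5 named ones lay outside coding genes. None of the 5 is at a gene end.

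Regions in the control alone were few and mostly narrow. The widest, at chr13:60795018-60796111, was 1094 bp wide and lay 221 kb from TDRD3. It lay below the fitted lower edge of the IGF2BP3 knockout, but within the range of that edge (59.53 to 61.86 Mb). The fitted lower edges of the knockouts of IGF2BP1 and IGF2BP2 (58.24 and 55.41 Mb) place it inside. The next, at chr13:64872003-64872463, was 461 bp wide. Others were 363 bp within GPC6 (chr13:93473779-93474141), 277 bp within KLF12 (chr13:74077932-74078208) and 256 bp at chr13:78425457-78425712, 173 kb from POU4F1.

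The 317 sites held by all 4 lists allow the width of the same site to be compared. Widths come from the same lists that set the bounds, so they are also a description. Their median width was 768 bp in the control and 990, 871 and 883 bp in the knockouts of IGF2BP1, IGF2BP2 and IGF2BP3. The median log2 ratio of knockout over control width was 0.29 (95% interval of the median 0.24 to 0.32), 0.13 (0.09 to 0.19) and 0.11 (0.07 to 0.15). At the 29369 other common sites of the genome the medians were 0.12, -0.006 and -0.03. Common sites on the rest of chromosome 13 (487) had medians of 0.14, -0.004 and -0.03.

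Sites wider than in the control numbered 280 (88.3%), 225 (71.0%) and 209 (65.9%), against 74.8, 48.7 and 43.8% over the genome. The median was above 0 in each of the 7 windows of 5 Mb and in each knockout. At 52 common sites near gene ends it was 0.24, 0.15 and 0.17, against 0.10, -0.01 and -0.01 at other such sites. When chromosomes were ordered by this median, with the segment counted apart from the rest of chromosome 13, the segment came 1 of 24 in each knockout. The other entries are whole chromosomes or the rest of chromosome 13. No block of like length was compared, so this rank is a description only.

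**Figure D3:**
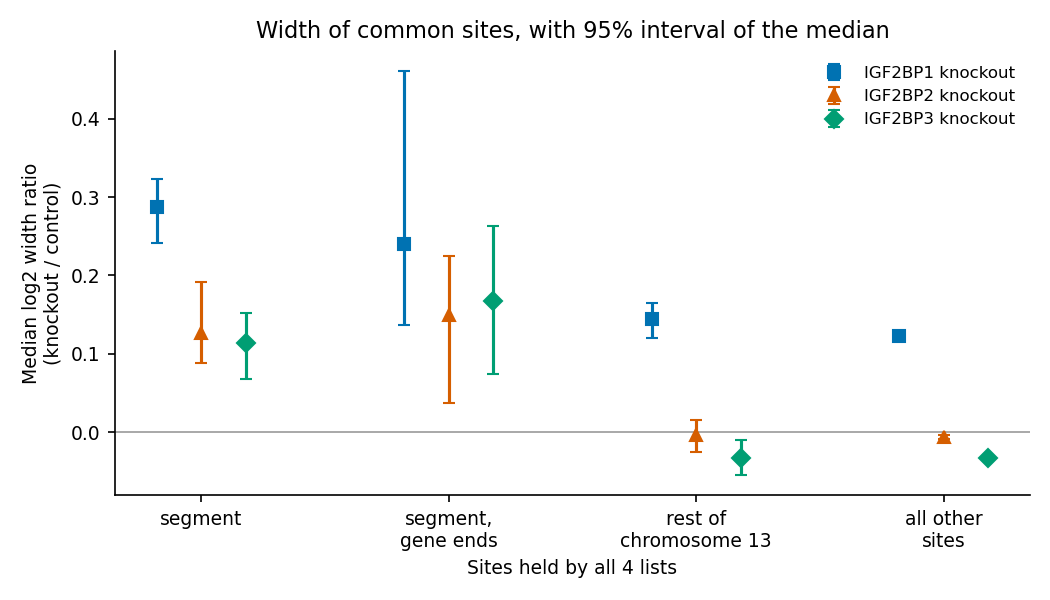
Median log2 ratio of knockout over control width (vertical axis) at sites held by all 4 lists, by location (horizontal axis), with bars for the 95% interval of the median over sites. The segment's medians lie between 0.11 and 0.29, above those of all other sites in each knockout.

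Peak numbers differed most far from the ends of coding genes, a distance that also includes peaks deep inside long genes. Within 1 kb of the end of a coding gene, the control list held 28 peaks and the knockouts 28, 29 and 30. From 1 to 10 kb the counts were 26, 39, 49 and 42, and from 10 to 100 kb they were 75, 174, 260 and 197. Beyond 100 kb the control list held 251 peaks and the knockouts 729, 1177 and 952, which is 2.90, 4.69 and 3.79 times the control. Of these, 59 control peaks and 144, 173 and 152 knockout peaks lay inside coding genes, and 192 against 585, 1004 and 800 lay outside them. The median distance to the nearest coding gene end was 206 kb in the control and 295, 357 and 355 kb in the knockouts. Peaks within coding genes were 1.99, 2.43 and 2.00 times as many as in the control, and peaks outside them 2.87, 4.86 and 3.90 times. The whole lists tilted the same way. Peaks over 1 kb from the end of any annotated gene numbered 1.44, 1.81 and 1.19 times the control over the whole lists. Whole list lengths were 1.30, 1.54 and 1.12 times. In the segment such peaks numbered 2.70, 4.31 and 3.44 times the control. The wider distance classes are given for the segment only.

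**Figure D4:**
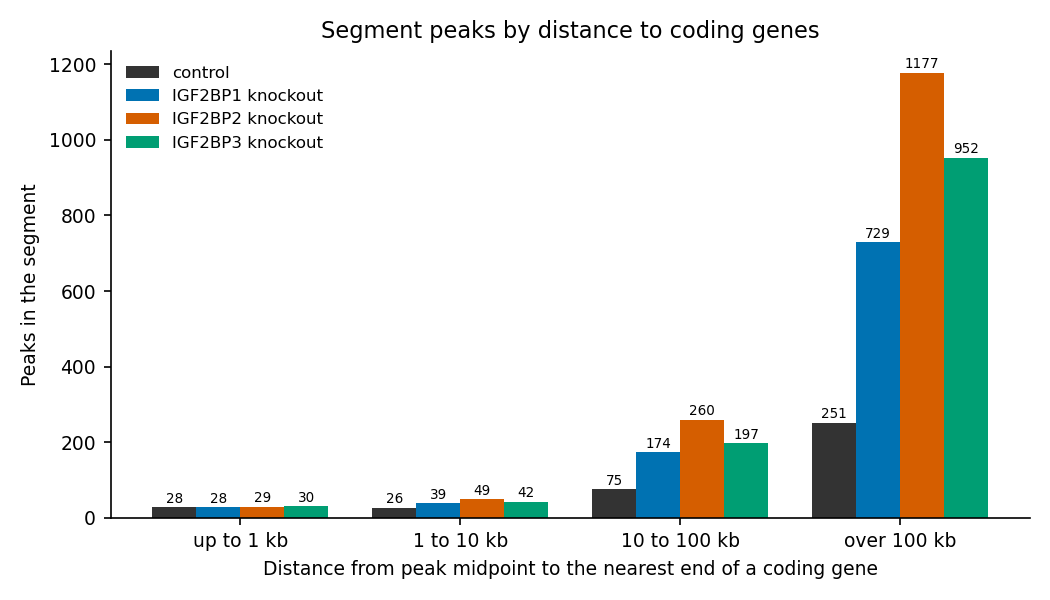
Number of peaks in the segment (vertical axis) by distance from the peak's midpoint to the nearest end of a coding gene (horizontal axis), with 1 bar per list. The 4 lists hold 28 to 30 peaks each within 1 kb, whereas beyond 100 kb the control holds 251 and the IGF2BP2 knockout 1177.

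Intervals of over 1 Mb without a coding gene made up 20.6 Mb of the segment. Over the 9 intervals the control list held 170 peaks and the knockouts 540, 972 and 761, or 3.18, 5.72 and 4.48 times the control. Between SPRY2 and SLITRK1, over 3.54 Mb, there were 15 control peaks and 65, 128 and 106 knockout peaks. Between SLITRK5 and GPC5, over 3.72 Mb that include the noncoding MIR17HG, there were 28 control peaks and 92, 143 and 117. Between KLHL1 and DACH1, over 1.33 Mb, there were 9 against 39, 63 and 44. Across all 9 intervals the ratio to the control ran from 2.54 to 8.53. No such ratio is given here for intervals elsewhere in the genome.

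The longest stretches without a control peak were picked for that lack, in a segment where the knockout lists are denser. Knockout peaks within them are thus a description only. The longest ran 1112 kb, from 82.77 to 83.88 Mb before SLITRK1, and held 12, 40 and 22 knockout peaks. Another of 798 kb, from 68.37 to 69.17 Mb, held 7, 32 and 22. One of 744 kb, from 93.51 to 94.25 Mb within GPC6, held 19, 22 and 23. In the knockouts the longest stretches without a peak were 270, 194 and 253 kb.

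Coding genes of the segment kept their gene-end peaks in all lists. Of 44 protein-coding genes that overlap the segment, 33 had a peak within 1 kb of a gene end in the control, and 34, 34 and 35 had one in the knockouts. The rule uses the outer gene ends. It thus leaves out KLF5, LMO7, EDNRB and GPC6, which each had a start open in all lists. Over all 20056 coding genes such a peak was present at 66.1% in the control. A gene-end peak was gained at 1, 1 and 2 genes, against 3.01, 3.24 and 2.32% over all coding genes. The gains were LOC124903229 in the knockouts of IGF2BP1 and IGF2BP2, and LOC112267897 and LOC647264 in the IGF2BP3 knockout, all loci without a gene name. As a share of the coding genes that lacked a control peak, gains over the genome were 8.86, 9.55 and 6.83%. No coding gene of the segment lost its gene-end peak, against 0.743, 1.37 and 1.65% over all coding genes.

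Adhesion and synapse genes held the most peaks by number, over the greatest length. Over the 8 listed genes in the segment the control list held 71 peaks and the knockouts 160, 189 and 163, while 6 of them had a gene-end peak in every list. Per 100 kb of gene this was 1.77 peaks in the control and 3.98, 4.70 and 4.05 in the knockouts. PCDH9, a protocadherin of neurons that spans 928 kb, held 32 control peaks and 58, 75 and 61 knockout peaks. GPC5, a glypican proteoglycan that spans 1469 kb, held 17 against 46, 48 and 46. Its neighbour GPC6, of the same family and 1191 kb long, held 12 against 41 in each knockout. Per 100 kb of gene, the control level was 3.45 peaks in PCDH9, 1.16 in GPC5 and 1.01 in GPC6, and in the IGF2BP1 knockout it was 6.25, 3.13 and 3.44.

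Intronic and exonic positions were not separated within these genes. KLHL1, a kelch-family actin-binding protein, held 6 control peaks and 11, 21 and 11 knockout peaks, with no gene-end peak in any list. The short genes SLITRK1, SLITRK5 and SLITRK6, which encode membrane proteins that organise synapses, and PCDH20 held 1 peak each in every list. At the SLITRK1 start the peak was 849 bp wide in the control and 1716, 1626 and 1019 bp in the knockouts. At SLITRK5 the widths were nearly level, at 2430, 2594, 2562 and 2426 bp. PCDH17, another protocadherin, lies below the segment.

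Among transcription factor genes, the long ones held most of the additional peaks. Over 5 genes the control list held 26 peaks and the knockouts 43, 59 and 44, and 4 had a gene-end peak in every list. Per 100 kb the level was 2.41 peaks in the control and 3.98, 5.46 and 4.07 in the knockouts. KLF12, a transcriptional repressor of the KLF family, held 13 control peaks and 26, 31 and 26 knockout peaks. DACH1, a nuclear cofactor of eye and limb development, held 10 against 14, 24 and 15. POU4F1 and KLF5 held 1 peak each in every list. SOX21, a repressor of the SoxB group, held 1 peak in every list except the IGF2BP2 knockout, which had 2.

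The widest site common to all lists lay in KLF12 (chr13:74133584-74136565), with peaks of 2783, 2895, 2731 and 2701 bp. The peak over the KLF5 inner start was 1179 bp in the control and 1302, 1164 and 1182 bp in the knockouts, and that over the POU4F1 start was 979, 1107, 1222 and 1222 bp. At SOX21 the region at chr13:94711091-94713662 held peaks totalling 2190 bp in the control and 2405, 2485 and 2490 bp in the knockouts. These widths stayed close between lists at KLF12 and KLF5.

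Genes of signalling, transport and pigment held fewer peaks by number, but not per length. Over 9 genes the counts were 17 in the control and 31, 33 and 29 in the knockouts, with a gene-end peak at 6 genes in every list. Per 100 kb this was 2.70 peaks in the control and 4.92, 5.24 and 4.60 in the knockouts. TBC1D4, a Rab GTPase-activating protein of insulin-stimulated glucose uptake, held 6 control peaks and 11, 13 and 11 knockout peaks. SCEL, which encodes the epidermal protein sciellin, held 0 control peaks and 4, 5 and 4 knockout peaks. EDNRB, the endothelin receptor type B, held 1, 1, 2 and 2 peaks. SPRY2, an inhibitor of receptor tyrosine kinase signalling, held 2, 3, 3 and 2. ACOD1, the enzyme that makes itaconate in activated macrophages, held 0 peaks in every list. DCT held 2, 2, 2 and 3 peaks, and ABCC4 lies above the segment.

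Housekeeping and protein-turnover genes had near-complete gene-end peaks, at 14 of 15 genes in every list. The other was LMO7, a cell-junction protein in this list, whose start open in all lists lies inside the outer gene ends. With peaks shared by neighbouring genes counted once, their bodies held 20 control peaks and 36, 46 and 34 knockout peaks, of which LMO7 held 3 against 13, 14 and 10. MYCBP2, a large ubiquitin ligase, held 1, 3, 5 and 4 peaks, and RBM26, an RNA-binding protein, 2, 2, 6 and 3. MZT1 and BORA, which act in spindle assembly and mitotic entry, DIS3, a ribonuclease of the RNA exosome, the deubiquitinase gene UCHL3 and TGDS held 1 peak each in every list. The shared start region of MZT1 and BORA was 1199 bp wide in the control and 1407, 1369 and 1410 bp in the knockouts.

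By number of peaks without a control counterpart, 5 genes led. Of these, GPC5, GPC6, PCDH9 and KLF12 are also the longest coding genes of the segment. PCDH9 had 31 of 58, 46 of 75 and 33 of 61 in the knockouts of IGF2BP1, IGF2BP2 and IGF2BP3. GPC6 had 31, 30 and 30, GPC5 29, 31 and 30, KLF12 15, 20 and 15, and LMO7 10, 12 and 8. Over the segment such peaks were 628 of 970, 1162 of 1515 and 874 of 1221. As a share of the gene's peaks, PCDH9, GPC5 and KLF12 lay below the segment in each knockout and LMO7 above it. GPC6 lay below it in the IGF2BP2 knockout only. With lists of equal length, PCDH9 held 32 control peaks and 43, 54 and 52 knockout peaks, GPC5 17 against 33, 32 and 41, and GPC6 12 against 28, 26 and 35. DACH1 then held 10 against 10, 11 and 13, so the count of 24 in the IGF2BP2 knockout fell to 11 when its narrower peaks were left out.

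**Figure D5:**
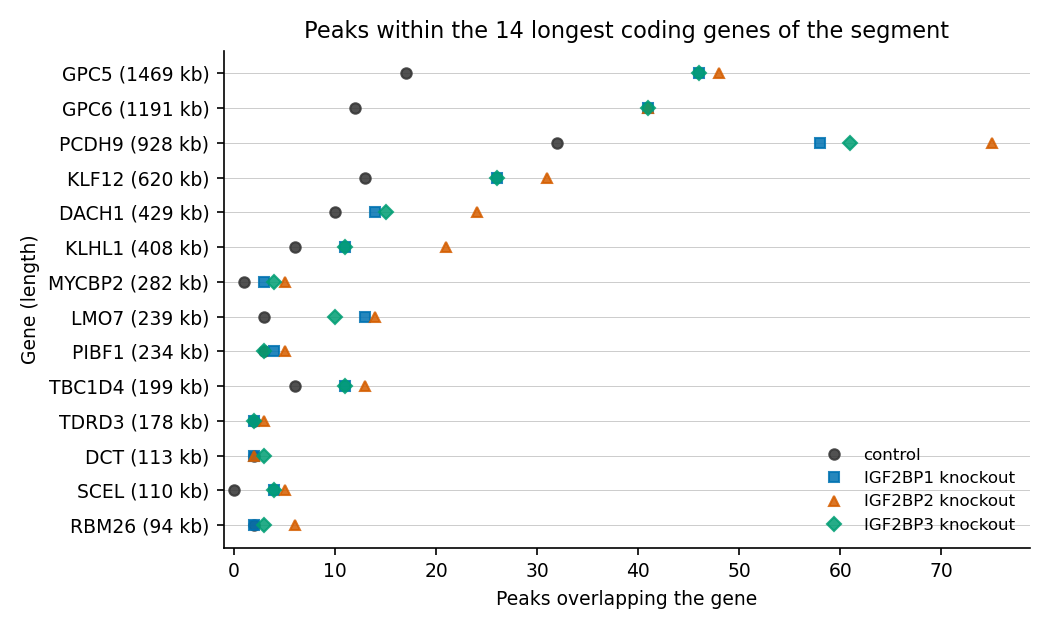
Peaks that overlap each of the 14 longest coding genes of the segment (horizontal axis, number of peaks; vertical axis, gene with its length in kb), with 1 symbol per list and equal counts drawn over each other. The control symbol lies left of every knockout symbol at GPC5, GPC6, PCDH9, KLF12, DACH1, KLHL1, MYCBP2, LMO7, TBC1D4 and SCEL.

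Start sites were nearly the same in the 4 lists. Of the 44 coding genes, 36 were matched in the promoter table of RefSeq. With loci that have no gene name left out and MIR17HG added, there were 55 start windows of 300 bases in 34 genes. Of these starts, 42 (76.4%) had a peak in all lists, against 44.6% of all 35116 windows and 57.7% of those of coding genes. No list had a peak at 9 starts, against 48.3% of all windows and 34.9% of those of coding genes. By list, 42 starts were open in the control and 46, 45 and 45 in the knockouts, against 47.2, 49.6, 48.3 and 47.8% of all windows. The 3 starts open in every knockout but closed in the control (0.957% of all windows) were internal starts of LMO7 under 1 peak, so they share their source. In total 31 genes had a start open in all lists, and ACOD1, KLHL1 and SCEL had none open in any.

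Open and closed starts differed in base composition, as the printed KLF5 pair shows. The median was 24 CpG dinucleotides over the 42 starts open in all lists and 3 over the 9 open in none. Over all coding promoters the corresponding medians were 28 and 5. Median GC content at the segment's open and closed starts was 61.8% and 41.7%. The GC box, searched as GGGCGG on both strands, was found at 25 of the 42 (59.5%) and at 1 of the 9 (11.1%), and 45.0% of all promoter windows hold it. Among promoters of coding genes it was found at 75.1% of those open in all lists and 26.4% of those open in none. A match of these letters is a description of the sequence and not a measured site.

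MIR17HG illustrates a start with little difference between lists. The peak over its promoter was 2360 bp wide in the control and 2387, 2416 and 2428 bp in the knockouts. It ended 1200 to 1284 bp before the first of the 6 microRNA hairpins of the cluster and overlapped none of them. GPC6 likewise had peaks of 2221, 2443, 2269 and 2212 bp over its start, while its body held 12 peaks in the control and 41 in each knockout list.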

How the data were processed

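Peak lists of ATAC-seq libraries from HEK293T cells were analysed, 1 list per group. The deposited files give 3 columns per peak (chromosome, start, end). These coordinates are positions, with no count, height or score, and 0 columns of other samples were found. The submitters' processing notes name GRCh38, fastp 0.24.1, BWA 0.7.17, MACS2 3.0.0 and bedtools, without roles or settings. The peak threshold and the way libraries were combined are not given in the sources used here. Greater depth or a looser threshold adds narrow peaks, which affects every count.

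Peaks were assigned by midpoint. Counterparts share at least 1 bp. Regions are merged overlapping peaks of the 4 lists. Gene positions and promoters come from RefSeq on GRCh38.p14, and a gene-end peak lies within 1 kb of either end of a gene. Windows used for shares had a pseudocount of 0.5. Edges maximised a binomial likelihood with at least 20 peaks inside. Intervals cover counting error only, and neighbouring peaks are not independent. No test was made, since the bounds come from these counts and each group is 1 list. Scripts were tested on simulated data and run in Python 3.11.15 with pandas 2.3.3, NumPy 2.4.6, SciPy 1.17.1 and Matplotlib 3.10.9.

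The members, gene lists and alternatives were chosen with earlier results of these data known. Genes were named by role from a list, together with the 5 genes with most peaks lacking a control counterpart. Up to 5 regions were named by width in each of the classes held by all lists, by all knockout lists and by the control alone. Alternatives covered lists of equal length, gene-end peaks, covered bases, the overlap rule, the windows and the width measure.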

Additional observations from a re-analysis of the deposited data

How the results depend on the processing

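Of the alternatives run, none reversed the direction of a knockout against the control. The order of the knockouts changed by peak number in lists of equal length, and by width with the percentile measure. Counting gene-end peaks only gave 52 peaks in the control and 83, 102 and 93 in the knockouts of IGF2BP1, IGF2BP2 and IGF2BP3, shares of 0.330, 0.487, 0.573 and 0.572%, and shares over control of 1.47, 1.74 and 1.73. Leaving gene-end peaks out gave shares of 1.40, 2.62, 3.33 and 4.06%. With the 39194 widest peaks, the IGF2BP2 knockout held 917 peaks (2.34%), and the shares with a control counterpart were 42.4, 33.4 and 31.8%. Covered bases gave 2.27 and 2.39% in the knockouts of IGF2BP2 and IGF2BP3. Taking the share of chromosome 13 as reference gave 1.41, 1.62 and 1.71 times the control. A reciprocal overlap of 50% gave 31.3% with a counterpart in the IGF2BP1 knockout. Windows of 2 Mb, and windows of 1 Mb, put the upper edge of the knockouts of IGF2BP2 and IGF2BP3 at 94 Mb. Measured as a difference in width percentile, common sites gave 7.58, 15.6 and 8.42 against 0.878, 7.76 and 1.62 at other sites, and at gene ends only the log2 medians were 0.24, 0.15 and 0.17. The width percentile has another unit than the log2 ratio, and the windows place edges at whole Mb. The cause of the other shifts was not tested. Of the recomputed values, 35 moved beyond their interval or, for counts, by over 1.5 times, and 79 did not. This tally includes the percentiles and the edges from windows, so it does not measure robustness.

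The edges in windows of 1 Mb, the bounds of 62 and 94 Mb and the widths at gene ends were added after seeing the data. With those bounds the share over control was 2.01, 2.69 and 2.97. No paired analysis was possible because each group has 1 list, which gives no value per library. For the same reason no replicate could be left out. Depth is unknown, and its part in the counts of narrow peaks was not tested.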
